A study of Mus musculus with 17 samples.

Results

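The genes described here are 43 genes of DNA replication and S phase. At the median, 22.1% of the variance of their transcripts lay between the 4 groups and the rest between libraries of the same group. All tested genes were similar (18.5%), and some share lies between groups even where groups do not differ. Among the 43, the share was highest for Rfc2 (59.3%), Tk1 (49.6%) and Rrm1 (46.8%). The 43 genes were chosen by name, as the rows of the expression table whose Ensembl ID carries 1 of 43 listed mouse symbols. That rule used no values, but the list was drawn up with earlier results of these data known. All 43 were found among the 37620 gene IDs, and all 43 were among the 12158 genes tested, a set made of genes that reached 1 TPM in 3 or more of the 17 libraries. TPM, the unit of the table, is a level per transcript length, scaled so that all libraries sum to the same amount.

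Each library came from bone marrow-derived macrophages of C57BL/6J (H-2b) mice, grown from marrow with M-CSF, the macrophage growth factor, at 50 ng/ml for 7 days. The groups were Smad3 wild type without added TGF-β1 (WT control, n = 5), Smad3 wild type given TGF-β1 (5 ng/ml) over 5 further days (WT with TGF-β1, n = 4), and the same for Smad3 knockout (KO control, n = 5, and KO with TGF-β1, n = 3). The study is about the macrophage-myofibroblast transition, in which macrophages take on features of contractile, matrix-producing cells under TGF-β, and Smad3 is a transcription factor activated by TGF-β receptors. The treatment protocol is worded alike for controls, and the sources used here do not say whether they stayed in culture for the same extra days. The design mentions a sort of F4/80-positive cells by smooth muscle actin, but no label ties a library to a sort, and the sources leave unclear whether a library holds 1 cell or many. Animals and cultures are not named in the labels, so each p-value speaks of the spread among libraries only, which may be technical. If libraries hold many cells, fewer cells in S phase and less of the RNA per cell cannot be told apart.

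Before a cell copies its genome, the origin recognition complex, Cdc6 and Cdt1 load the ring-shaped Mcm helicase onto DNA, and cyclin E with its kinase and E2F transcription factors open S phase. The helicase then unwinds DNA with Cdc45 and GINS, polymerases held by the Pcna clamp copy it, flaps are trimmed and nicks sealed, nucleotides are supplied, and new chromatin is assembled. M-CSF drives division of macrophages in culture, and in many cell types TGF-β slows passage from G1 to S phase.

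Many replication genes are known targets of E2F factors, so E2F letters are likely in this list whatever the expression values. The promoters were searched because the 43 genes varied together across libraries, but a link between the letters and that variation was not tested. RefSeq windows of build GRCm38.p6, from 250 bases before to 50 after the start of the gene, were matched by symbol to 35 of 43 members (40 windows). Those without a matched window were Exo1, Tipin, Mcm4, Gins2, Ccne2, Pole, Rfc2 and Gins1. The letters TTTGGCGC, TTTGCCGC, TTTCGCGC and TTTCCCGC, the core of known E2F sites, were searched on both strands, with overlapping matches counted separately. They were present in 14 of 40 member windows (35.0%), in 744 of 32851 windows of all genes (2.26%) and in 1 of 28 windows of a list of mitosis genes (3.57%). CCAAT, also searched on both strands, was present in 22 of 40 member windows (55.0%), 37.4% of all windows and 23 of 28 mitosis windows (82.1%). The 14 genes with E2F letters were Cdc6, Cdt1, Clspn, Hells, Lig1, Mcm3, Mcm5, Mcm6, Mcm7, Orc1, Pola1, Pold1, Rfc3 and Uhrf1. A match is a description of the letters, not a shown binding site. Among the 14 genes with a match, r with the mean of the other members ran from 0.0764 (Orc1) to 0.873 (Mcm6). Among members with a window but no match, it ran from 0.315 (E2f1) to 0.815 (Rrm2). The 200 bases before the start are printed for 6 of the 14, chosen after the search from the licensing, helicase and chromatin genes, to show where the letters lie, 5′ to 3′ on the strand of the gene, with the E2F letters in capitals on whichever strand they read. The windows are Orc1 at chr4:108579254-108579453 on the plus strand, Cdc6 at chr11:98907951-98908150 on the plus strand, Mcm5 at chr8:75109309-75109508 on the plus strand, Mcm6 at chr1:128359706-128359905 on the minus strand, Mcm7 at chr5:138171884-138172083 on the minus strand and Hells at chr19:38930790-38930989 on the plus strand, in the coordinates of that RefSeq build, which is not the build the submitters name. In Mcm5 and Mcm6 a match on each strand overlaps to give 1 longer run of capitals, and Mcm6 has a further match nearer the start.
Orc1: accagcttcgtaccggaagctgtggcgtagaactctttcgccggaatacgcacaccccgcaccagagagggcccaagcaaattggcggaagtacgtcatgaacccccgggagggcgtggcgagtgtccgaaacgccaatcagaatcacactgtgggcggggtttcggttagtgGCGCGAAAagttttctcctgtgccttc
Cdc6: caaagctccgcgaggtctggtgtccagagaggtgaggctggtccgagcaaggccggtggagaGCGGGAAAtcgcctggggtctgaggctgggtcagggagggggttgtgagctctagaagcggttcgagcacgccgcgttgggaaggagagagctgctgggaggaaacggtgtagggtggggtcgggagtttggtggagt
Mcm5: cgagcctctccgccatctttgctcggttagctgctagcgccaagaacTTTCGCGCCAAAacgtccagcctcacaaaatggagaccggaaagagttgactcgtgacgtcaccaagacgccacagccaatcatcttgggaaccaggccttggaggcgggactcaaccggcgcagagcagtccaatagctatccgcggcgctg
Mcm6: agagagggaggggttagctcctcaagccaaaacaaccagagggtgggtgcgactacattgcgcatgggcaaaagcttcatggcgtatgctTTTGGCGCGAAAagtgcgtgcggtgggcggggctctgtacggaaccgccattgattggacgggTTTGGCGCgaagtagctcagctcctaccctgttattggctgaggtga
Mcm7: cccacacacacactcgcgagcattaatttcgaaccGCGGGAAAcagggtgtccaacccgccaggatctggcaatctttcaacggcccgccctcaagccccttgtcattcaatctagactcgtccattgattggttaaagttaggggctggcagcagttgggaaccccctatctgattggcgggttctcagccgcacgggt
Hells: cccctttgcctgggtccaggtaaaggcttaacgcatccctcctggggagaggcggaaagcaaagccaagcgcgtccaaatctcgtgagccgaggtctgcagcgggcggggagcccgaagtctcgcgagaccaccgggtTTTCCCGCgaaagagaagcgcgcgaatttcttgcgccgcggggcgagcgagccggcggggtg

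Several facts of the whole series bear on these genes. The number of genes at 1 TPM or more ran from 7269 to 10307 per library, and of the genes at a mean of 10 to 50 TPM in the rest of their group a library listed 4.08% to 14.8% at 0. In 6 libraries this share was over 10% (WT controls 3, 4 and 5, WT with TGF-β1 3, KO control 2 and KO with TGF-β1 2). Smad3 itself went against the labels with TGF-β1 but not in controls. With TGF-β1 it reached 1 TPM in 2 of 3 KO but 0 of 4 WT libraries (KO minus WT log2 2.47, two-sided exact permutation p = 0.0286). Among controls it reached 1 TPM in 1 of 5 KO and 2 of 5 WT libraries (-1.16, exact p = 0.365). KO therefore stands for libraries labelled knockout throughout. Macrophage markers were present in every library, with 6 to 8 of 8 at 1 TPM or more and a summed level of 7699 to 43305 TPM. Lymphocyte markers summed to at most 0.26 TPM, erythroid to 4.64 and fibroblast to 9.72, and of the neutrophil markers (at most 171 TPM in sum) S100a9, Ly6g, Camp, Ltf, Ngp and Retnlg were at 0 in all 17. The other neutrophil markers were detected in a few libraries. S100a8 was at 132 TPM in WT control 4, 34.6 in KO control 5 and 11.0 in KO control 3. Mmp8 was at 136 TPM in KO control 5 and 14.2 in WT control 1.

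Over all 43 genes, transcripts were detected in every library but unevenly, as the heat map of levels shows. Between 28 and 43 members reached 1 TPM in a library. Of the members, 14 were at 1 TPM or more in all 17 libraries, while 6 (Orc1, Cdc6, Exo1, Ung, Ccne1 and Ccne2) reached it in 10 or fewer, and 10 were listed at 0 at least once. Library values are given below in the order of their label numbers, 1 to 5, 1 to 4, 1 to 5 and 1 to 3. Unless a gene is named as an exception, its libraries with TGF-β1 overlapped those of the controls in both genotypes.

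**Figure D1:**
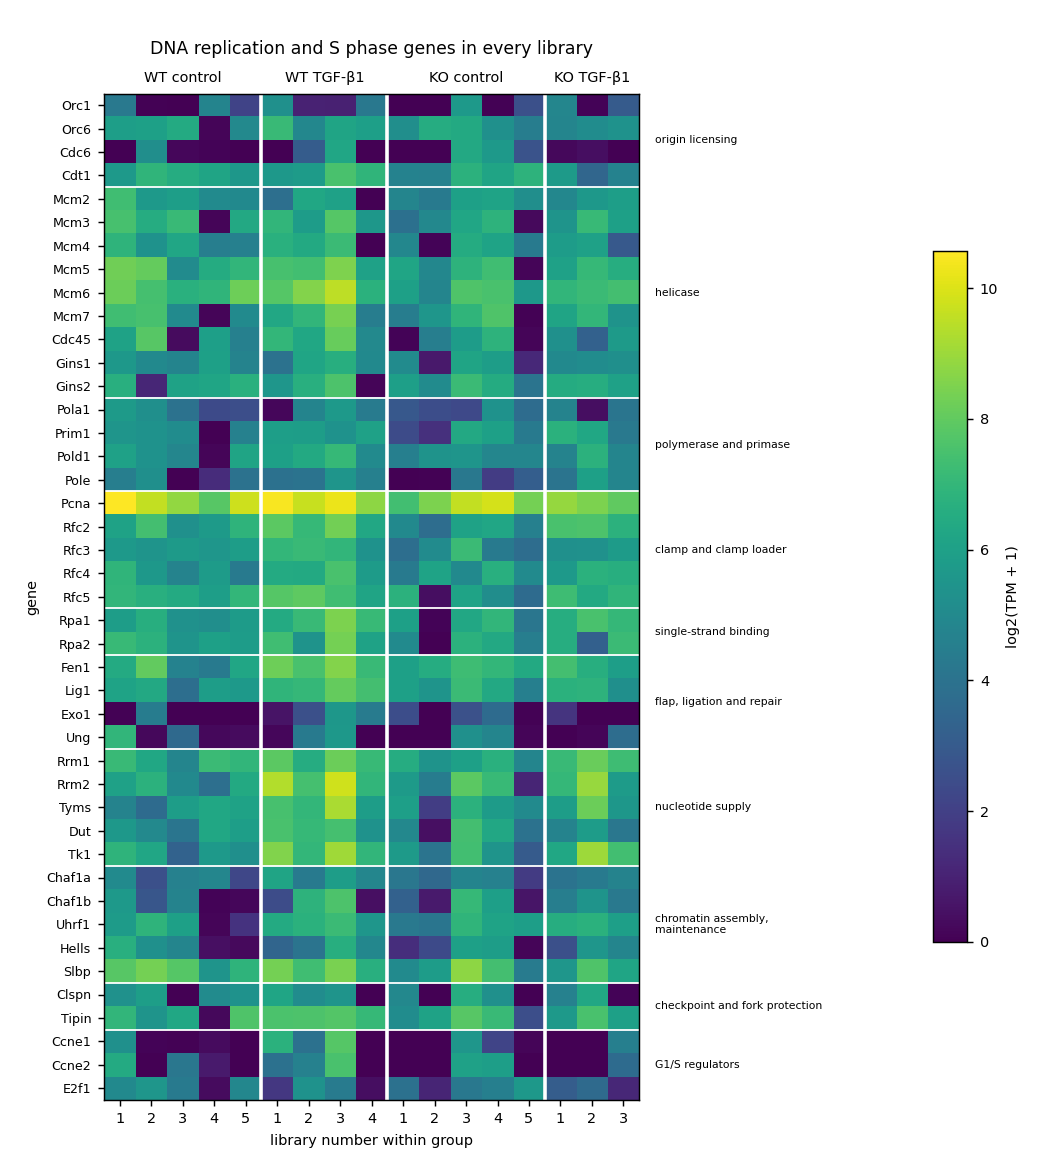
Levels of the 43 genes, as colour on a log2(TPM + 1) scale, with genes in rows grouped by role and the 17 libraries in columns grouped by genotype and treatment. Cdc6, Ccne1, Ccne2, Ung and Exo1 are dark in most libraries and bright in a few, while Pcna is bright in all 17.

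The licensing genes were present at moderate levels in nearly all libraries except Cdc6 and Orc1, which were on in some and off in others. Over the 4 genes, the median log2 difference with TGF-β1 was 0.93 in WT and -0.83 in KO, and none of them passed the test. Cdt1, which brings the Mcm ring to the origin, was at 50.2, 118, 92.8, 70.4 and 47.1 TPM in the WT controls, 48.6, 54.6, 182 and 121 in WT with TGF-β1, 24.7, 23.9, 111, 71.8 and 113 in the KO controls and 53.1, 10.2 and 24.6 in KO with TGF-β1. Its levels in KO with TGF-β1 were low in libraries 2 and 3, and WT with TGF-β1 library 3 held the highest value. Orc6, the smallest subunit of the origin recognition complex, was at 60.2, 63.03, 85.98, 0.10 and 30.1 TPM in the WT controls, 141, 28.7, 70.4 and 62.05 in WT with TGF-β1, 36.6, 93.02, 83.5, 37.9 and 20.98 in the KO controls and 27.4, 34.4 and 40.3 in KO with TGF-β1. WT control 4 was the lone library under 1 TPM, and WT with TGF-β1 library 1 was the highest. Cdc6, the loader that works with Cdt1, was at 0, 35.8, 0.15, 0.06 and 0 TPM in the WT controls, 0, 7.44, 74.6 and 0 in WT with TGF-β1, 0, 0, 81.8, 51.7 and 5.53 in the KO controls and 0.16, 0.33 and 0 in KO with TGF-β1. All 3 KO libraries with TGF-β1 were under 1 TPM, and the high values sat in WT control 2, WT with TGF-β1 library 3 and KO controls 3 and 4. Orc1, the largest subunit of the complex, ranged from 0 to 52.1 TPM and reached 1 TPM in 10 libraries.

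Of the 9 helicase genes, 8 had their highest level in WT with TGF-β1 library 3, and Mcm2 had it in WT control 1. With TGF-β1, the 9 genes had a median log2 difference of 0.37 in WT and 1.26 in KO, with Mcm2 the lowest in WT. Mcm6, a subunit of the Mcm ring, was at 293, 172, 103, 121 and 302 TPM in the WT controls, 220.3, 388, 737 and 107 in WT with TGF-β1, 62.6, 26.9, 198, 186 and 49.1 in the KO controls and 124, 147 and 169 in KO with TGF-β1. KO controls 1, 2 and 5 were the lowest libraries and WT with TGF-β1 library 3 by far the highest. Mcm5, another subunit of the ring, was at 312, 267, 33.6, 90.6 and 122 TPM in the WT controls, 178, 166, 364 and 64.8 in WT with TGF-β1, 72.4, 28.2, 113, 157 and 0.09 in the KO controls and 64.4, 134 and 94.8 in KO with TGF-β1. KO control 5 was near 0, and WT control 1 and WT with TGF-β1 library 3 were the highest. Mcm2, a further subunit, was at 160.1, 51.01, 58.9, 32.2 and 30.97 TPM in the WT controls, 13.6, 78.4, 65.7 and 0.02 in WT with TGF-β1, 26.9, 19.7, 63.4, 69.2 and 35.9 in the KO controls and 28.5, 48.6 and 59.2 in KO with TGF-β1. It was near 0 in WT with TGF-β1 library 4 and highest in WT control 1, and its TGF-β1 difference was -1.73 ± 0.96 in WT (log2, ± SE, n = 4 and 5, limma adjusted p = 0.584) against 0.17 ± 1.04 in KO (adjusted p = 0.998). The other ring subunits spanned 0.09 to 218 TPM for Mcm3, 0.02 to 145 for Mcm4 and 0.05 to 336 for Mcm7. Cdc45 spanned 0.06 to 274 TPM, and the GINS subunits spanned 0.67 to 98.4 (Gins1) and 0.09 to 194 (Gins2). Each of these 6 was under 1 TPM in at least 1 library, and Mcm3 and Mcm7 were so in the same libraries, WT control 4 and KO control 5.

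Polymerase and primase genes were detected in most libraries, and for all 4 the treated libraries overlapped the controls in both genotypes. Their median difference with TGF-β1 (log2, 4 genes) was 1.57 in WT and 1.02 in KO. Pold1, the catalytic subunit of polymerase delta, which copies the lagging strand, was at 65.02, 41.2, 27.8, 0.10 and 69.9 TPM in the WT controls, 63.9, 85.2, 136 and 32.7 in WT with TGF-β1, 22.3, 42.3, 44.5, 27.9 and 28.2 in the KO controls and 25.6, 109 and 26.8 in KO with TGF-β1. WT control 4 was near 0, and WT with TGF-β1 library 3 and KO with TGF-β1 library 2 were the highest. Prim1, the catalytic subunit of primase, which lays the RNA primers, was at 45.05, 41.2, 34.7, 0 and 24.04 TPM in the WT controls, 59.3, 57.7, 40.7 and 65.5 in WT with TGF-β1, 4.34, 1.78, 83.1, 62.9 and 19.2 in the KO controls and 107, 77.5 and 18.4 in KO with TGF-β1. WT control 4 was again at 0, KO controls 1 and 2 were low, and the 4 WT libraries with TGF-β1 lay close together. Pole, the catalytic subunit of the leading-strand polymerase, spanned 0 to 63.3 TPM, and its difference with TGF-β1 was 3.09 ± 1.26 in KO (adjusted p = 0.769). Pola1, the catalytic subunit of the polymerase that extends primers, spanned 0.15 to 52.9 TPM.

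Pcna had the highest mean TPM of the 43 genes over the 17 libraries and took 7.74% to 29.5% of their summed TPM in a library (mean 18.8%). In KO with TGF-β1 library 2, Tk1 (511 TPM) and Rrm2 (485) were above Pcna (355). Over the 5 genes, the median log2 difference with TGF-β1 was 0.96 in WT and 0.93 in KO. Pcna, the sliding clamp that holds the polymerases on DNA, was at 1511, 773, 463, 223 and 872 TPM in the WT controls, 1406, 821, 1209 and 439 in WT with TGF-β1, 165, 351, 772, 936 and 325 in the KO controls and 479.5, 355 and 254 in KO with TGF-β1. It was present in every library, and its highest values were in WT control 1 and WT with TGF-β1 libraries 1 and 3. Its pseudogene Pcna-ps2 was listed in all 17 libraries, at up to 640 TPM, and took 28.0% to 32.3% of the sum of both, so the split of reads between them is uncertain, while the ratio hardly moved between libraries. Rfc2, a subunit of the loader that opens the clamp, was at 66.7, 167, 38.03, 53.5 and 116 TPM in the WT controls, 235, 135, 317 and 79.9 in WT with TGF-β1, 31.5, 12.9, 67.8, 75.8 and 23.1 in the KO controls and 186, 192 and 111 in KO with TGF-β1. The 3 KO libraries with TGF-β1 all lay above the 5 KO controls (2.16 ± 0.63 log2, n = 3 and 5, adjusted p = 0.526), and in WT the groups overlapped (1.13 ± 0.58, adjusted p = 0.537). The other loader subunits spanned 12.8 to 148 TPM for Rfc3, 18.6 to 185 for Rfc4 and 0.31 to 242 for Rfc5. Rfc3 and Rfc4 were over 10 TPM in every library, and Rfc5 was under 1 TPM in KO control 2 alone.

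Rpa1 and Rpa2, subunits of replication protein A, which coats single-stranded DNA at the fork, were highest in the same library, WT with TGF-β1 library 3. With TGF-β1, the 2 genes had a median log2 difference of 1.05 in WT and 1.73 in KO. Rpa1, the large subunit, was at 57.4, 96.1, 39.98, 36.6 and 54.96 TPM in the WT controls, 86.3, 144, 358 and 139 in WT with TGF-β1, 63.4, 0.07, 80.3, 122 and 16.8 in the KO controls and 95.5, 182 and 129 in KO with TGF-β1. KO control 2 was near 0, and the difference with TGF-β1 was 2.34 ± 1.04 in KO (adjusted p = 0.811) and 1.54 ± 0.96 in WT (adjusted p = 0.645). Rpa2, the middle subunit, was at 139.8, 108, 42.6, 62.4 and 56.9 TPM in the WT controls, 157, 41.9, 325 and 67.4 in WT with TGF-β1, 32.6, 0, 109, 81.2 and 21.6 in the KO controls and 96.04, 8.43 and 144 in KO with TGF-β1. KO control 2 was at 0 here too, and KO with TGF-β1 library 2 was low.

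Fen1 and Lig1, which finish lagging-strand pieces, had higher levels in all 4 WT libraries with TGF-β1 than in 4 (Fen1) or all 5 (Lig1) of the WT controls, while Exo1 and Ung were intermittent. Their median difference with TGF-β1 (log2, 4 genes) was 1.86 in WT and -0.39 in KO. Fen1, the endonuclease that trims flaps, was at 87.1, 262, 24.4, 18.6 and 74.8 TPM in the WT controls, 301, 183, 386 and 142 in WT with TGF-β1, 62.8, 93.03, 154, 126 and 84.2 in the KO controls and 167, 96.3 and 58.8 in KO with TGF-β1. WT control 2 lay among the WT TGF-β1 libraries, the difference in WT was 1.94 ± 0.62 (adjusted p = 0.26) and in KO -0.01 ± 0.67 (adjusted p = 1). Lig1, the ligase that seals the pieces, was at 69, 81.3, 13.3, 57.96 and 50.6 TPM in the WT controls, 118, 131, 269 and 167 in WT with TGF-β1, 63.2, 42.7, 147, 82.9 and 22.3 in the KO controls and 107, 114 and 37.6 in KO with TGF-β1. All 4 WT libraries with TGF-β1 lay above the 5 WT controls (1.77 ± 0.60, adjusted p = 0.304) and above the 3 KO libraries with TGF-β1 (-1.06 ± 0.68 for KO minus WT, adjusted p = 1), and in KO treated and control libraries overlapped. Exo1, an exonuclease of mismatch repair and resection, spanned 0 to 47.4 TPM and reached 1 TPM in 8 libraries, and Ung, the glycosylase that removes uracil from DNA, spanned 0 to 122 TPM and reached it in 7.

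The genes that make deoxynucleotides had the highest median difference with TGF-β1 of the 10 roles in WT. Over the 5 genes, the median log2 difference with TGF-β1 was 2.07 in WT and 1.64 in KO, and no gene passed the test. Rrm2, the small subunit of ribonucleotide reductase and its S phase-limited part, was at 64.9, 108, 31.8, 13.6 and 85.3 TPM in the WT controls, 652, 174, 902 and 121 in WT with TGF-β1, 52.8, 20.9, 241, 139 and 1.16 in the KO controls and 131, 485 and 54.2 in KO with TGF-β1. All 4 WT libraries with TGF-β1 lay above the 5 WT controls (2.76 ± 1.06, adjusted p = 0.398), and in KO the ranges overlapped (1.98 ± 1.16, adjusted p = 0.856). Tk1, thymidine kinase of the salvage pathway, was at 116, 74.8, 9.03, 52.2 and 37.5 TPM in the WT controls, 379.9, 128, 524 and 124 in WT with TGF-β1, 52.5, 15.9, 165, 42.8 and 7.28 in the KO controls and 77.6, 511 and 164 in KO with TGF-β1. WT libraries with TGF-β1 again lay above all WT controls (2.41 ± 0.83, adjusted p = 0.311), and KO control 3 overlapped the KO TGF-β1 libraries (2.42 ± 0.90, adjusted p = 0.731). Rrm1, the large subunit of the reductase, given in full after its values were seen, was at 144, 77.7, 26.7, 147 and 124 TPM in the WT controls, 236, 92.9, 289.9 and 139 in WT with TGF-β1, 90.9, 41.8, 63.5, 102 and 27.1 in the KO controls and 139.8, 282 and 157 in KO with TGF-β1. All 3 KO libraries with TGF-β1 lay above the 5 KO controls (1.64 ± 0.59, adjusted p = 0.713), and WT groups overlapped. Tyms, which makes thymidylate, spanned 2.78 to 596 TPM, and Dut, which removes dUTP, 0.35 to 185 TPM.

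Genes that rebuild chromatin behind the fork included the abundant Slbp and the intermittent Chaf1b and Hells. With TGF-β1, the 5 genes had a median log2 difference of 1.42 in WT and 0.97 in KO. Slbp, which binds the stem-loop of histone mRNAs, was at 225, 324, 218, 43.4 and 115 TPM in the WT controls, 329, 161, 347 and 99.8 in WT with TGF-β1, 32.6, 56.4, 438, 169 and 20.1 in the KO controls and 46.2, 199.8 and 73.5 in KO with TGF-β1. It was lowest in KO control 5 and highest in KO control 3, so both extremes lay in 1 group. Uhrf1, which keeps DNA methylation on newly copied strands, was at 54.8, 116, 63.1, 0.11 and 1.91 TPM in the WT controls, 86.2, 106, 145 and 46.05 in WT with TGF-β1, 18.03, 16.2, 120.1, 68.7 and 59.3 in the KO controls and 95.1, 107 and 61.2 in KO with TGF-β1. WT controls 4 and 5 were under 2 TPM, and the difference in WT was 2.41 ± 1.08 (adjusted p = 0.472). Of the chromatin assembly factor 1 subunits, Chaf1a spanned 2.55 to 70.98 TPM and Chaf1b 0.08 to 196, and the chromatin remodeller Hells spanned 0.11 to 100.3.

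The fork-protection genes were present in most libraries of each group. Their median difference with TGF-β1 (log2, 2 genes) was 1.02 in WT and 0.50 in KO. Tipin, a partner of Timeless at the fork, was at 123, 43.8, 77.1, 0.18 and 198 TPM in the WT controls, 191, 196, 211 and 134 in WT with TGF-β1, 34.5, 67.1, 222, 143 and 4.76 in the KO controls and 50.97, 185 and 63.1 in KO with TGF-β1. WT control 4 was under 1 TPM, and the 4 WT libraries with TGF-β1 were close together, with WT control 5 among them. Clspn, claspin, which activates the checkpoint kinase Chk1, was at 39.7, 59.3, 0.02, 32.9 and 41.3 TPM in the WT controls, 73.02, 34.7, 43.6 and 0 in WT with TGF-β1, 29.9, 0, 93.5, 38.1 and 0.02 in the KO controls and 24.1, 80.3 and 0.08 in KO with TGF-β1. It was under 1 TPM in at least 1 library of each group.

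Among the regulators of S phase entry, Ccne1 reached 1 TPM in 7 and Ccne2 in 8 of the 17 libraries. Over the 3 genes, the median log2 difference with TGF-β1 was 1.74 in WT and -1.17 in KO. Ccne1, cyclin E1, was at 38.1, 0.08, 0.03, 0.24 and 0.02 TPM in the WT controls, 106, 14.3, 221 and 0 in WT with TGF-β1, 0, 0, 46.1, 3.53 and 0.12 in the KO controls and 0, 0 and 22.8 in KO with TGF-β1. It was high in WT control 1, WT with TGF-β1 libraries 1 and 3, and KO control 3, and lower or near 0 in the others. Ccne2, cyclin E2, was at 87.7, 0, 17.01, 0.69 and 0 TPM in the WT controls, 14.3, 23.99, 182 and 0 in WT with TGF-β1, 0, 0, 65.1, 59.2 and 0.02 in the KO controls and 0, 0 and 11.9 in KO with TGF-β1. Its high libraries were WT control 1, WT with TGF-β1 library 3, and KO controls 3 and 4. E2f1, the founding E2F activator, was at 31.1, 45.3, 19.7, 0.23 and 28.9 TPM in the WT controls, 2.24, 40.95, 20.3 and 0.31 in WT with TGF-β1, 14.6, 1.13, 17.7, 22.8 and 48.9 in the KO controls and 7.59, 11.5 and 1.25 in KO with TGF-β1. It was under 3 TPM in WT with TGF-β1 libraries 1 and 4, and its difference was -1.05 ± 1.25 in WT (adjusted p = 0.845) and -1.26 ± 1.36 in KO (adjusted p = 0.968).

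**Figure D2:**
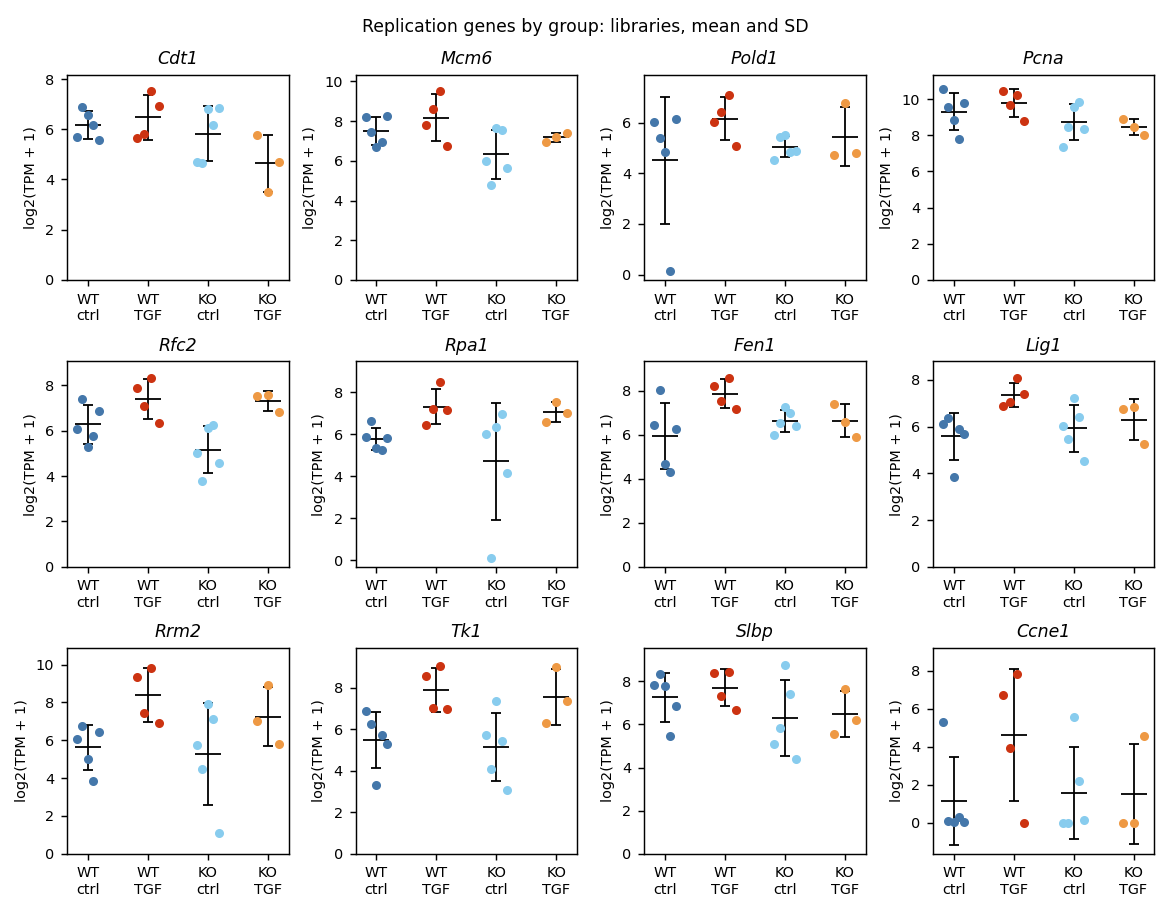
Levels of 12 members on a log2(TPM + 1) axis, with 1 panel a gene, 1 point a library, and bars at the group mean ± SD (n = 5, 4, 5 and 3 from left to right). For Lig1, Tk1 and Rrm2 the 4 WT TGF-β1 points lie above all 5 WT control points, and for Rfc2 the 3 KO TGF-β1 points lie above the 5 KO control points.

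Libraries of 1 group differed widely in the summed level of the 43 genes. The sums were 5279, 4072, 2209, 1649 and 3131 TPM in the WT controls, 6525, 4753, 10468 and 2685 in WT with TGF-β1, 1422, 1211, 4999, 4029.5 and 1102 in the KO controls and 2900.5, 4583 and 2516 in KO with TGF-β1. Group means were 3268 ± 1454, 6108 ± 3303, 2553 ± 1827 and 3333 ± 1099 TPM (SD, n = 5, 4, 5 and 3), and all 4 groups overlapped. A list of 30 mitosis genes, which act after replication, summed to 461, 4363, 114, 5385 and 5762 TPM in the WT controls, 7610.2, 5610.2, 3255 and 9782 in WT with TGF-β1, 9129, 1601, 882, 632 and 1528 in the KO controls and 6472, 8596 and 8296 in KO with TGF-β1. The replication sum divided by the mitosis sum ran from 0.156 in KO control 1 to 19.5 in WT control 3, and was over 5 also in WT control 1 (11.5) and KO controls 3 (5.67) and 4 (6.37). No library with TGF-β1 had a ratio over 3.22.

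**Figure D3:**
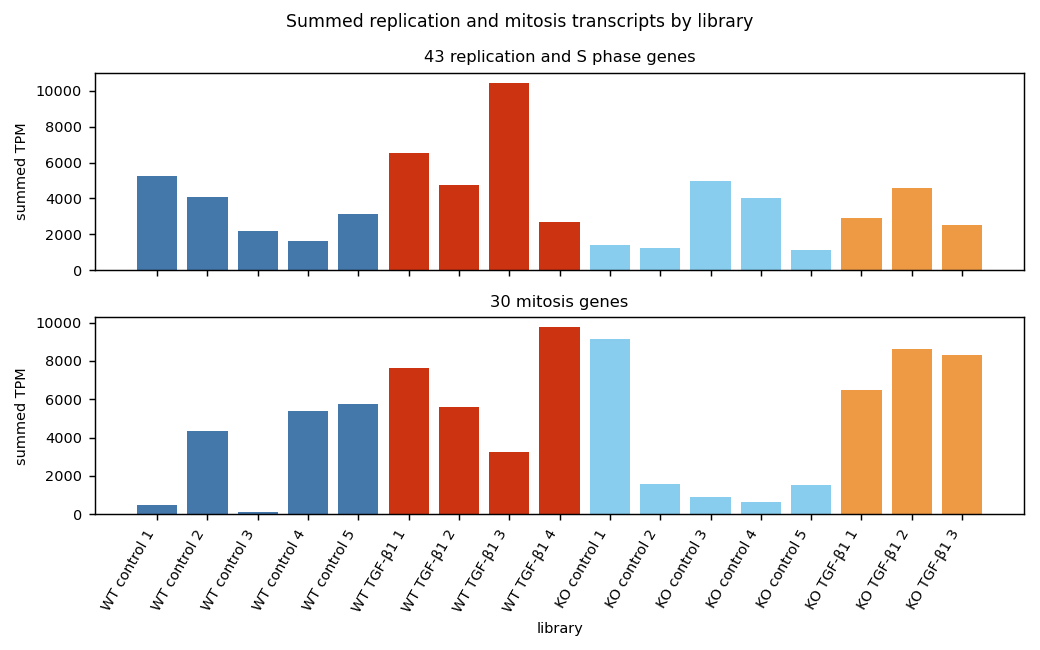
Summed TPM of the 43 replication and S phase genes (top) and of 30 mitosis genes (bottom) in each of the 17 libraries, coloured by group. WT with TGF-β1 library 3 has the highest replication sum (10468 TPM), KO control 1 has a low replication sum (1422) and a high mitosis sum (9129), and WT controls 1 and 3 have low mitosis sums (461 and 114) beside replication sums of 5279 and 2209.

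The transcripts of Ccne1, Ccne2, Ung and Cdc6 are known to peak around the entry to S phase. Each was present in few libraries, and Ccne1, Ccne2 and Ung were largely in the same ones. At 10 TPM or more, Ccne1 was present in 6 libraries, Ccne2 in 8, Ung in 7 and Cdc6 in 4. All 6 libraries with Ccne1 also had Ccne2, and all 7 with Ung had Ccne2. Of the 4 libraries with Cdc6, 3 had Ccne2, 3 had Ung and 2 had Ccne1. WT with TGF-β1 library 3 and KO control 3 had all 4 genes, and WT control 1, WT with TGF-β1 library 2, KO control 4 and KO with TGF-β1 library 3 had 3 of 4. WT controls 4 and 5, WT with TGF-β1 library 4, KO controls 1, 2 and 5 and KO with TGF-β1 libraries 1 and 2 had none. Libraries with all or none of the 4 genes therefore occurred in both genotypes and under both treatments. The other intermittent members, Orc1 and Exo1, were detected both in libraries with all 4 genes and in libraries with none. Orc1 was highest in KO control 3 (52.1 TPM) and Exo1 in WT with TGF-β1 library 3 (47.4 TPM), which had all 4. In libraries with none of the 4 genes, Orc1 was at 26.1 TPM (WT control 4), 17.8 (WT with TGF-β1 library 4) and 27.8 (KO with TGF-β1 library 1). Exo1 was at 19.8 TPM in WT with TGF-β1 library 4.

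**Figure D4:**
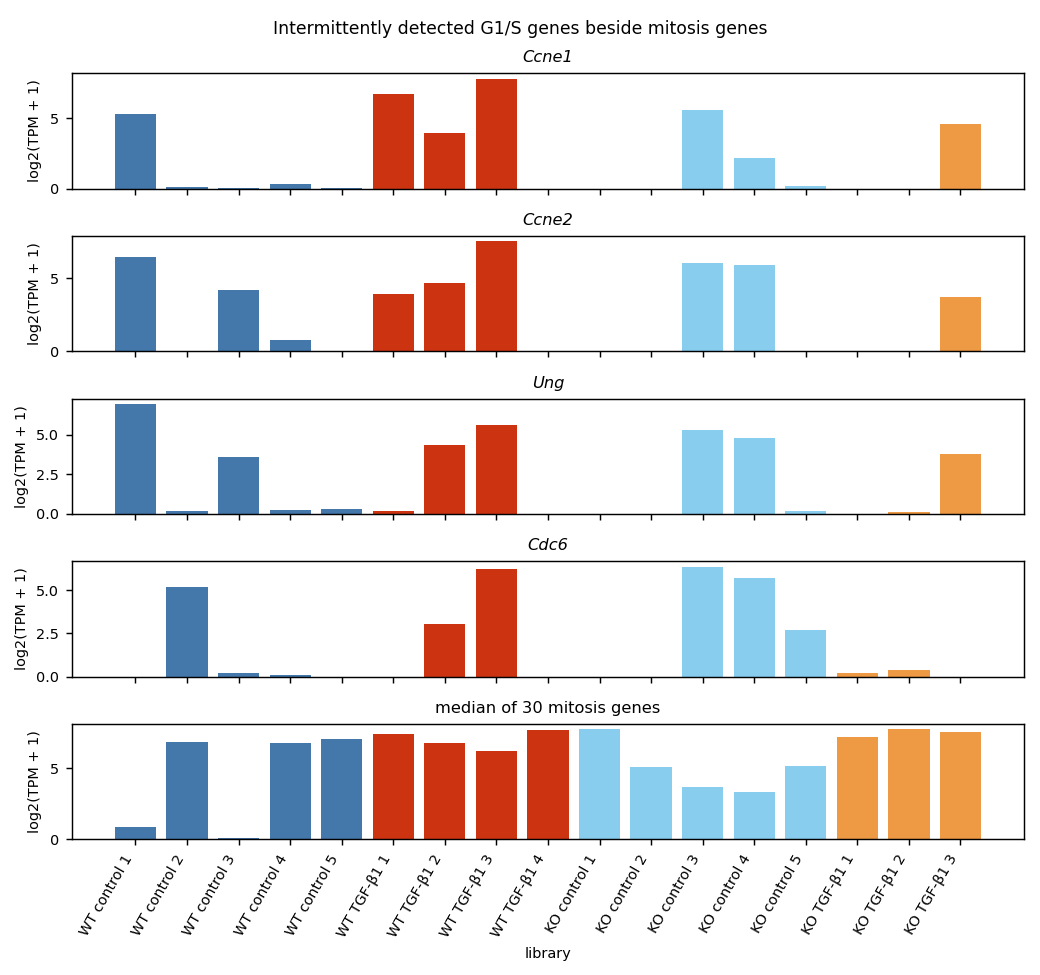
Levels of Ccne1, Ccne2, Ung and Cdc6, and the median of the 30 mitosis genes (bottom), in each of the 17 libraries on a log2(TPM + 1) axis, as bars coloured by group. Ccne1 is at 10 TPM or more in 6 libraries, all of which also have Ccne2, and 8 libraries have none of the 4 genes at that level.

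The 43 genes varied together across libraries. Over the 17 libraries, Pearson's r of log2(TPM + 1) had a median of 0.394 over the 903 pairs of members and was 0.5 or more in 32.8% of them, against a median of 0.0206 and 2.85% for 7395712 pairs of tested genes. With the group means removed, the median was 0.38 for member pairs (31.5% at 0.5 or more) and 0.0213 for pairs of tested genes (4.35%). These are descriptions over 17 libraries that share the scaling to 1 total. The highest pairs were Ccne2 with Ung (r = 0.932), Mcm3 with Mcm7 (0.924), Tipin with Mcm3 (0.906) and Rrm1 with Tk1 (0.876), and the lowest were E2f1 with Chaf1a (-0.407) and with Orc1 (-0.383). Mcm6 followed the mean of the other members most closely (0.873), then Rrm2 (0.815) and Slbp (0.802), while Orc1 (0.0764) and Cdt1 (0.237) followed it least. Against the mean of the mitosis list, r was highest for Rrm1 (0.55), Tk1 (0.461), Rfc2 (0.455) and Lig1 (0.443) and lowest for Ung (-0.578), Ccne2 (-0.5) and Mcm2 (-0.461). The 4 groups held a median of 22.1% of a member's variance, from 2.68% for Clspn to 59.3% for Rfc2, against 18.5% over all tested genes. The spread within groups had a median SD of 1.82 (log2) for members and 1.47 for all tested genes.

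The main question the groups put to these genes is whether TGF-β1 moves them in wild type. No member passed the test: 0 of 43 were called at an adjusted p under 0.05 (limma, Benjamini-Hochberg over 12158 genes), where 0.181% of all tested genes were. Without adjustment, 7 of 43 (Fen1, Lig1, Tk1, Rrm2, Tyms, Uhrf1 and Ccne1) had p under 0.05 on the higher side, 16.3% against 6.7% of all tested genes, and 0 on the lower side, against 3.27%. The smallest adjusted p was 0.26, for Fen1. The difference was above 0 for 37 of 43 members and 53.8% of all genes, and its median was 1.23 for members and 0.09 for all genes (log2). Lig1, Tk1 and Rrm2 did not overlap between the groups, 6.98% of members against 1.8% of all genes on the higher side, and 0 members did so on the lower side, against 0.987%. Below 0 were Mcm2, E2f1, Mcm4, Gins2, Pola1 and Clspn. The median was 0.754 without WT with TGF-β1 library 3. It was -0.0857, with 20 of 43 above 0, without the 6 libraries that listed over 10% of moderate genes at 0, which left 2 WT controls and 3 WT libraries with TGF-β1.

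In libraries labelled knockout the median difference with TGF-β1 was also above 0, and no member passed the test. Of the 43 members, 0 were called, where 0.00823% of all tested genes were. Without adjustment, 6 (Rfc2, Rrm1, Tk1, Rfc5, Pole and Rpa1) had p under 0.05 on the higher side, 14% against 3.73% of all genes, and 0 on the lower side, against 2.2%. The smallest adjusted p was 0.526, for Rfc2. The median was 0.67 for members and 0.07 for all genes, with 32 of 43 above 0 against 53.1% of all genes. Rrm1 and Rfc2 did not overlap, 4.65% of members against 3.05% of all genes, and 0 members did so on the lower side, against 1.84%. The 11 members below 0 were Cdc6 (-2.75 ± 1.66, adjusted p = 0.868), E2f1, Exo1, Cdt1, Ccne2, Ung, Orc6, Pola1, Pcna, Ccne1 and Fen1. The median was 0.355 without KO control 5, 1.18 without KO control 3 and 0.362 without the 6 libraries with many zeros.

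Averaged over the genotypes, which draws on all 10 controls and 7 treated libraries and shares them with both comparisons above, 0 of 43 were called, where 0.378% of all tested genes were. Without adjustment, 12 had p under 0.05 on the higher side (27.9% against 7.58% of all genes) and 0 on the lower side (against 3.2%), and 37 of 43 differences were above 0 (54% of all genes). Tk1 came closest, with 2.41 ± 0.61 (log2) and an adjusted p of 0.0973, and Rfc2 followed with 1.64 ± 0.43 and 0.107. Tk1 passed at an adjusted p of 0.0493 when KO control 3 was left out. The median was 0.96 for members and 0.08 for all genes, and 0.19 without the 6 libraries with many zeros. Cd34, a progenitor marker, had a difference with TGF-β1 of 5.24 ± 1.32 (log2) in the average, which did not pass the test (adjusted p = 0.0969), and its libraries overlapped in both genotypes. It was at 269.6, 0.13, 157 and 645 TPM in WT with TGF-β1 and 29.5, 978 and 6.09 in KO with TGF-β1, and among the 10 controls it reached 1 TPM only in KO control 1 (146). Of the other progenitor markers, Mpo, Elane, Prtn3 and Ctsg were at 0 in all 17 libraries, Ms4a3 and Flt3 were under 1 TPM, and Kit was at 11.0 TPM in KO control 4 alone. The part of Cd34-positive cells in these differences was not tested.

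**Figure D5:**
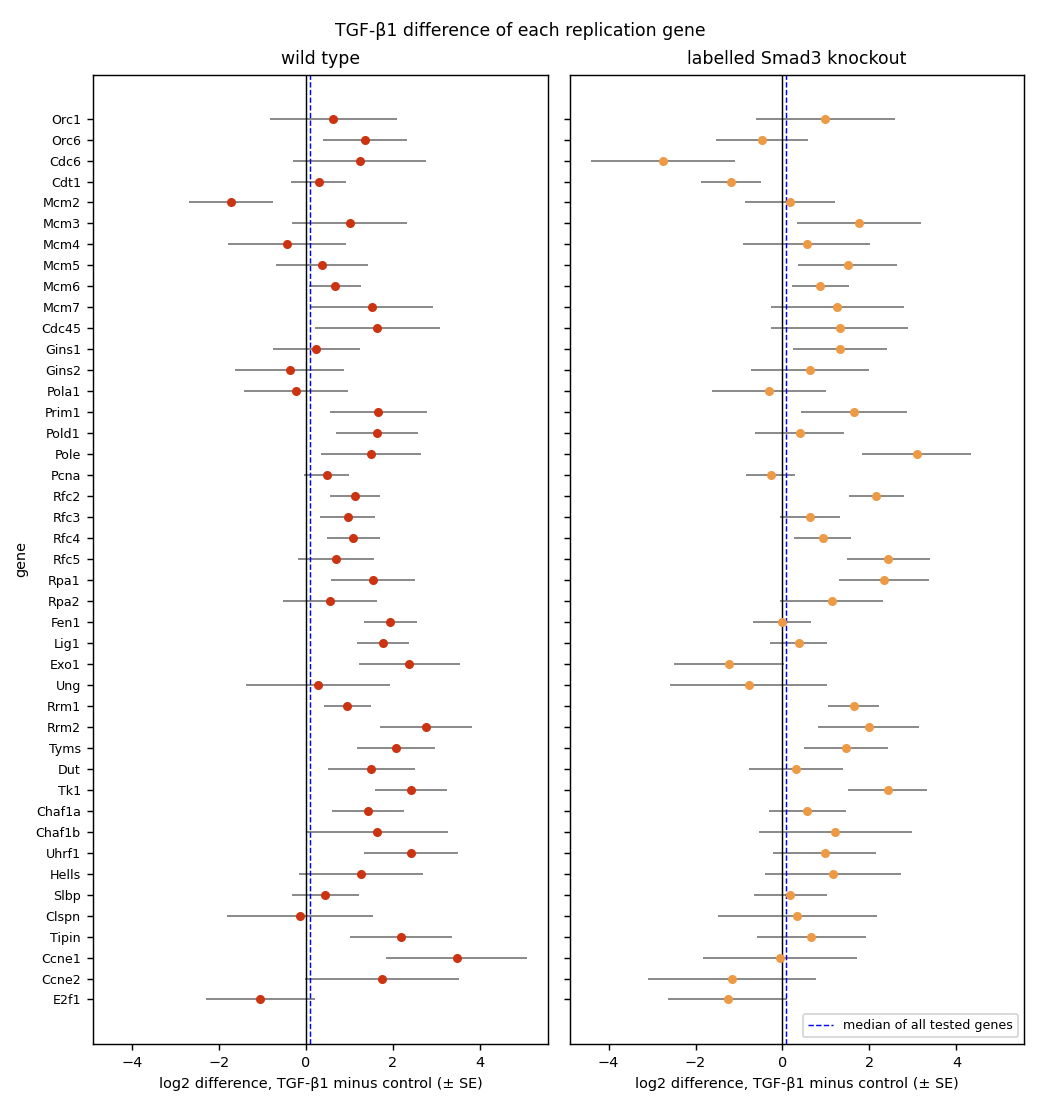
Difference with TGF-β1 (log2, ± SE) of each of the 43 genes in WT and in KO, with genes ordered by role, a solid line at 0 and a dashed line at the median of all tested genes. Differences are above 0 for 37 genes in WT and 32 in KO, and the error bars are wide in both.

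Whether the difference with TGF-β1 depended on the Smad3 label was tested as the difference of effects. It gave 0 calls among the 43 members and among all 12158 genes (0% called). Without adjustment, 2 members had p under 0.05 on the lower side (Fen1 -1.95 ± 0.91 and Exo1 -3.61 ± 1.72), 4.65% against 2.43% of all genes, and 0 on the higher side, against 2.25%. The median was -0.26 for members and -0.04 for all genes, with 16 of 43 above 0 against 48.7%. It was above 0 without WT with TGF-β1 library 3 (0.172), KO control 3 (0.263), KO control 4 (0.0878) or the 6 libraries with many zeros (0.314), and between -0.861 and -0.0515 in the other fits that left out 1 library.

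Between the genotype labels, the members were lower in KO than in WT at the median under both conditions. The member median had an SD of 0.876 (log2) between libraries of a group. That is a spread of single libraries, not the error of a difference between groups. In controls 0 of 43 were called, where 0.148% of all tested genes were, and 12 of 43 differences were above 0 against 55.6% of all genes, with a median of -0.35 against 0.11. Mcm6 (-1.18 ± 0.56, adjusted p = 0.857) and Rfc5 (-2.17 ± 0.83, adjusted p = 0.747) had an unadjusted p under 0.05 on the lower side, 4.65% against 1.92% of all genes, and 0 members on the higher side, against 3.9%. The libraries of KO and WT controls overlapped for all 43, where 0.683% of all genes did not overlap on the higher side and 0.378% on the lower. The control median was -0.0851 without KO control 2, -0.111 without WT control 1, -0.155 without KO control 5, and -0.797, -0.794 and -0.761 without WT control 4, KO control 3 and KO control 4. With TGF-β1, 0 of 43 were called, where 0.156% of all genes were, and 5 of 43 differences were above 0 against 52.9%, with a median of -0.72 against 0.06. Cdt1 (-1.83 ± 0.72, adjusted p = 0.796) and Pcna (-1.33 ± 0.59, adjusted p = 0.929) had an unadjusted p under 0.05 on the lower side, 4.65% against 2.04% of all genes, and 0 members on the higher side, against 3.21%. Lig1 alone did not overlap, on the lower side, 2.33% of members against 2.34% of all genes, and 0 members did so on the higher side, against 3.15%. This median was -0.401 without WT with TGF-β1 library 3, -1.08 without WT with TGF-β1 library 4 and -0.456 without KO with TGF-β1 library 3. The comparisons share libraries with those of TGF-β1 against control.

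Other lists of the cell cycle are given for context. Of all tested genes, 53.8% were above 0 with TGF-β1 in WT and 53.1% in KO, and 0.378% were called in the average. On the higher side, 1.8% of all genes did not overlap in WT and 3.05% in KO. Of 40 other replication genes, 30 were above 0 with TGF-β1 in WT and 22 in KO (medians 0.60 and 0.15). Pole2, an accessory subunit of polymerase epsilon, rose with TGF-β1 in the average over genotypes (3.90 ± 0.79 log2, adjusted p = 0.0244, limma), and it was at 0.03, 0, 1.33, 0 and 0 TPM in the WT controls, 73.5, 47.4, 27.2 and 25.3 in WT with TGF-β1, 0.06, 20.4, 28.6, 5.13 and 0 in the KO controls and 14.3, 56.95 and 45.9 in KO with TGF-β1. Treated libraries overlapped the controls in KO and did not overlap in WT, where 3 of the 40 genes (7.5%) did not overlap on the higher side. Of 30 genes that control G1 and S phase entry, 27 were tested, and 19 were above 0 in WT and 21 in KO (medians 1.01 and 1.22). Cdkn1a, the inhibitor p21 that holds cells before S phase, rose in the average (2.46 ± 0.43, adjusted p = 0.0107) and was at 372, 101, 112, 307 and 600.3 TPM in the WT controls, 3422, 1233, 715 and 2329 in WT with TGF-β1, 167, 298, 245, 319 and 93.9 in the KO controls and 364, 2261 and 955 in KO with TGF-β1. Every treated library lay above every control of its genotype. In WT, 4 of the 27 tested genes of this list (14.8%), Cdkn1a among them, did not overlap on the higher side. Leaving out 1 library ended the call of Pole2 without WT with TGF-β1 library 1 (adjusted p = 0.0668) or 2 (0.0586) and without KO with TGF-β1 library 2 (0.111) or 3 (0.0853), and that of Cdkn1a without KO with TGF-β1 library 2 (0.0539). Both calls also ended with no filter on low values (0.0621 and 0.0829) and without the 6 libraries with many zeros (0.241 and 0.117), and that of Pole2 with a replicate block (0.142). All 30 mitosis genes were above 0 in both genotypes (medians 2.71 in WT and 2.53 in KO) and none was called, with Top2a, the topoisomerase that untangles chromosomes, at 2.59 in the average (adjusted p = 0.0760) and Mki67, the proliferation marker Ki-67, at 1.73 (adjusted p = 0.280). Of the 8 macrophage markers, 4 were above 0 in WT and 6 in KO (medians 0.08 and 0.67), and 1 was called, in the average alone. Csf1r, the receptor for M-CSF and the called marker, rose in the average (1.32 ± 0.27, adjusted p = 0.0244) and was at 498, 270.3, 628, 177 and 262 TPM in the WT controls, 586, 694, 1197 and 940.5 in WT with TGF-β1, 536, 273, 363, 299 and 232 in the KO controls and 563, 1020.0 and 944 in KO with TGF-β1. Its call ended without WT with TGF-β1 library 3 (adjusted p = 0.0534) or 4 (0.0634), KO control 2 (0.0516) or 5 (0.0527), and KO with TGF-β1 library 2 (0.117) or 3 (0.0901), and also with no filter (0.104), upper-quartile scaling (0.0704), a replicate block (0.13) or without the 6 libraries with many zeros (0.29). Of 16 genes of S phase DNA repair, 13 were above 0 in WT and 10 in KO (medians 1.20 and 0.37).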

How the data were processed

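RNA was sequenced from 17 libraries of mouse bone marrow-derived macrophages, grouped by the sample titles. The authors deposited TPM values, which correct for transcript length and are scaled to 1 total. Per the submitters' processing notes, FastQC, Trim Galore and RSEM were used with build mm9, with versions not given in the sources used here. Read depth cannot be had from this unit, so the counting error behind a value is unknown. RSEM shares reads among near-identical transcripts, which makes the level of Pcna and its pseudogene uncertain.

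Symbols were matched to 32897 of 37620 gene IDs through GENCODE vM21. Tests covered the 12158 genes that reached 1 TPM in 3 or more libraries, as log2(TPM + 1), a scale that understates differences of low genes. limma 3.58.1 in R 4.3.3 (eBayes with trend) was fitted over the 4 groups without covariates, with Benjamini-Hochberg adjustment over all tested genes, a threshold of 0.05 and 6 contrasts. The fit was checked on simulated data with independent noise and planted changes larger than most differences of the members. That check does not show whether differences of the size seen in the members would be called. An exact two-sided permutation test was used for Smad3. Correlations are descriptive. The members and the other lists were chosen with earlier results of these data known.

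Every library's value is given for the 2 members of each role with the highest mean TPM and for Pcna, Mcm2, Cdc6, Rrm2, Ccne1 and E2f1, which makes 23 members, and for Rrm1, added after its values were seen, and the other 19 are given by range. From the other lists, Cdkn1a, Mki67, Top2a and called genes are named. Alternatives were other scalings, pseudocounts of 0.1 and 10, other filters, robust estimation, a fit of the compared groups alone, detected genes per library as a covariate, a replicate block, each library left out, and the 6 libraries with many zeros left out. Replicate numbers are shared between groups, but same-numbered libraries did not deviate together (r from -0.0761 to 0.0204), so the block is only an alternative. The sort by smooth muscle actin was not analysed here.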

Additional observations from a re-analysis of the deposited data

Results flagged for a closer look

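In groups of 4 or 5 libraries, 11 of 78 sets of values had 1 library far from the rest. The gap asked for would arise in about 1 of 20 groups of normally distributed values. TPM values are skewed and these genes varied together, so that rate does not hold here and gives no measure of chance. WT control 1 stood apart for Ccne1 (38.1 TPM, the next 0.24), Ccne2 (87.7, the next 17.01), Ung (122, the next 11.1) and Mcm2 (160.1, the next 58.9). WT control 2 stood apart for Fen1 (262, the next 87.1) and Cdc6 (35.8, the next 0.15). WT with TGF-β1 library 3 stood apart for Ccne2 (182, the next 23.99) and Cdc6 (74.6, the next 7.44). KO control 3 stood apart for Tk1 (165, the next 52.5) and Ccne1 (46.1, the next 3.53). KO control 1 stood apart for the summed mitosis genes (9129 TPM, the next 1601), although its replication sum was 1422 TPM.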

How the results depend on the processing

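No member was called in any of the 6 comparisons under any alternative, with 1 exception: Tk1 in the average over genotypes without KO control 3, so the count of called members ranged from 0 to 1 when 1 library was left out. The median difference of the members with TGF-β1 in wild type was -0.0857 without the 6 libraries that listed over 10% of moderate genes at 0, and Uhrf1 in wild type was also -0.0857 there. Leaving out 1 library gave medians of 0.754 to 1.49 in WT, 0.355 to 1.18 in KO, 0.806 to 1.12 averaged, -0.861 to 0.263 for the difference of effects, -0.797 to -0.0851 for KO minus WT in controls and -1.08 to -0.401 with TGF-β1. With detected genes per library as a covariate the difference of effects was -0.0207 and the control difference -0.846, and a pseudocount of 10 gave 0.354 in KO. A fit with a replicate block gave medians of 0.912 in WT, 0.188 in KO, 0.697 averaged, -0.524 for the difference of effects, -0.351 in controls and -0.881 with TGF-β1, and 0 members called (smallest adjusted p 0.285). Libraries of the same number correlated best with each other in 0 of 4 WT, 2 of 3 KO, 0 of 5 control and 1 of 3 treated pairs, so the numbers were not read as pairing. The cause of these shifts was not tested. Depth is unknown for all 17 libraries, so a value listed at 0 gives no upper limit.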
